A study of Homo sapiens with 6 samples.

Results

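DNA repair pathway genes were followed as 52 named genes of the mismatch, base excision, nucleotide excision, recombination, crosslink and end-joining pathways. Each symbol of the list matched 1 of the 61487 Ensembl gene IDs in the deposited count table. The genes were assigned to 9 pathways by function, not by any measured value. RNA was measured in 3 libraries of azacitidine-resistant and 3 libraries of azacitidine-sensitive K562 cells, an established human chronic myeloid leukaemia line in which functional p53 is lost. Resistant cells were derived from the sensitive line by continuous exposure to rising azacitidine concentrations over months, and the labels name no other agent, clone or genotype for either group. Every library name carries the tag NT, which the labels do not spell out. They do not say whether drug was in the medium at harvest, or whether resistance was derived more than once. Replicates are labelled biological, but no label says that the cultures were separate, and the spread behind each p-value may therefore be technical.

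Azacitidine is a cytidine analogue that is built into RNA and DNA, where it traps DNA methyltransferases as protein crosslinked to the strand. Cells clear such lesions with proteases and with excision and recombination enzymes, and replication forks that meet them activate checkpoint kinases. Mismatch repair corrects copying errors, base excision repair replaces damaged bases, nucleotide excision repair removes bulky lesions, and the Fanconi anaemia pathway unhooks crosslinks between strands. Broken ends are rejoined by homologous recombination, which copies an intact template, or by non-homologous end joining, which ligates them directly.

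Total counts were 33007642, 37991708 and 36669944 in resistant libraries 1, 2 and 3, against 40616331, 34924828 and 43006918 in sensitive libraries 1, 2 and 3. Levels are given as CPM, the usual scaling of counts to library size, with each library total multiplied by its TMM factor. A floor of 3 counts corresponds to between 0.0698 and 0.0909 CPM of the unscaled totals. Of 6 markers of K562 identity, the summed level was between 309 and 570 CPM in resistant libraries and between 364 and 423 CPM in sensitive libraries. Of 10 markers of other cell types, the summed level was between 108 and 137 CPM in resistant libraries and between 139 and 236 CPM in sensitive libraries. CD3E, MS4A1, CD79A, CD14 and KRT5 were below 1 CPM in every library, and the sum was mostly the epithelial gene EPCAM, between 91.2 and 131 CPM throughout. The T cell gene CD3D had 1.91, 2.36 and 1.57 CPM in resistant libraries, against 28.2, 18.5 and 95.2 CPM in sensitive libraries, and its part in the repair gene values was not tested. In bulk RNA, fewer cells with a transcript and less transcript per cell cannot be told apart. In both groups the library numbered 3 stood apart. It had a higher log2 level than the mean of libraries 1 and 2 in both groups for 30 of 51 repair genes (58.8%), against 29.8% of all genes tested. Its part in the comparisons was measured by leaving out both libraries numbered 3. Mitochondrial ribosomal RNA took 17.8%, 16.8% and 8.54% of the counts in resistant libraries, against 14.0%, 16.2% and 12.8% in sensitive libraries. Small nucleolar RNA took 0.114%, 0.116% and 0.227% in resistant libraries, against 0.404%, 0.616% and 0.695% in sensitive libraries, with no overlap. The part of the small nucleolar RNA share in the repair gene values was not tested.

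Most repair genes differed little between resistant and sensitive cells. Of the 52 genes, 51 had enough counts to be tested, and at a Benjamini-Hochberg adjusted p below 0.05 resistant cells had 4 of them higher and 2 lower (edgeR quasi-likelihood test over 20891 genes). That is 11.8% of the repair genes, against 23.0% of all genes tested. By direction, 7.84% were higher, against 9.83% of all genes, and 3.92% were lower, against 13.1% of all genes. CHEK2, MSH3, OGG1 and FANCI rose, EXO1 and ERCC1 fell, and 45 genes did not pass. The median log2 fold change, resistant over sensitive, was 0.015 over the 51 repair genes and 0.028 over all genes.

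The size of the differences was small. The median size of the log2 fold change, without sign, was 0.19 over the repair genes and 0.48 over all genes tested. It was within 0.5 for 46 of the 51 repair genes (90.2%), against 51.6% of all genes and 63.4% of the 10663 protein-coding genes whose mean level was at least that of the lowest tested repair gene. Of those 10663 genes, 27.2% passed the threshold. They share only a lower bound on level with the repair genes and were not matched to them in level. In 14 of the 51 repair genes (27.5%) the resistant and sensitive libraries did not overlap, 9 higher and 5 lower in resistant cells, against 40.1% of all genes (18.7% higher, 21.4% lower). With the replicate number as a block, 7 repair genes were higher and 3 lower, 19.6% of them, against 30.8% of all genes. Without both libraries numbered 3, 11 were higher and 10 lower, 41.2% of them, against 44.1% of all genes. The 15 members added there were RAD51C, BLM, WRN, FANCC, ATR, TP53BP1 and PRKDC as higher and MSH6, LIG3, POLB, TDP1, XPC, ERCC5, CHEK1 and XRCC4 as lower. All 6 genes past the threshold with 6 libraries also passed in both of these fits. Of all genes called, 42.8% were higher with TMM factors and 58.9% with library totals alone, where 9 repair genes were higher and 2 lower, BLM, WRN, FANCD2, ATR and PRKDC being added.

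**Figure D1:**
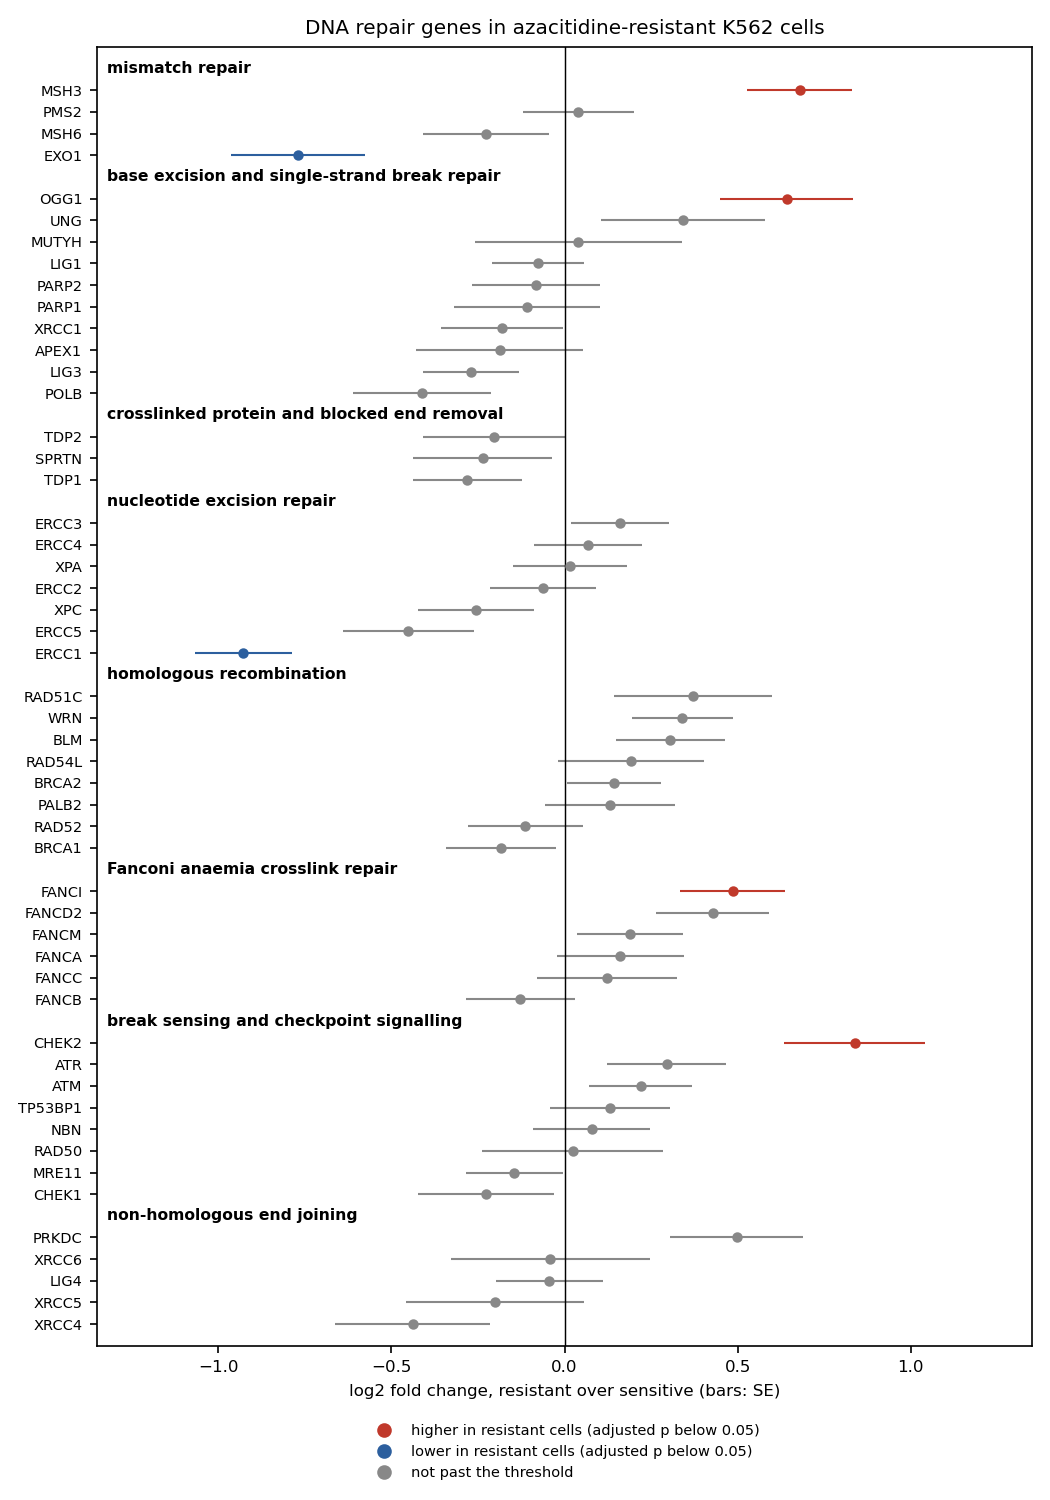
Log2 fold change of each of the 51 tested repair genes, resistant over sensitive, on the horizontal axis, grouped by pathway down the page, with bars for the SE. Only CHEK2, MSH3, OGG1 and FANCI (red, higher) and ERCC1 and EXO1 (blue, lower) pass an adjusted p below 0.05, and the other 45 lie between −0.45 and 0.50.

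The promoter windows of the member with the largest rise (CHEK2) and the members that fell (ERCC1, EXO1) are printed for the reader, since these genes are among those with the largest differences of the set. Each is 300 bases from RefSeq on GRCh38.p14, from 250 bases before to 50 bases after a listed start, read 5′ to 3′ on the gene's strand. Capitals mark matches, on either strand, to the E2F-type letters TTTCCCGC and TTTGGCGC, the CCAAT box or the letters TTTGAA, and no match shown overlaps another. The windows lie at chr22:28741771-28742070 (minus strand) for CHEK2, chr19:45423479-45423778 (minus strand) for ERCC1, and chr1:241847954-241848253 (plus strand) for EXO1.
CHEK2: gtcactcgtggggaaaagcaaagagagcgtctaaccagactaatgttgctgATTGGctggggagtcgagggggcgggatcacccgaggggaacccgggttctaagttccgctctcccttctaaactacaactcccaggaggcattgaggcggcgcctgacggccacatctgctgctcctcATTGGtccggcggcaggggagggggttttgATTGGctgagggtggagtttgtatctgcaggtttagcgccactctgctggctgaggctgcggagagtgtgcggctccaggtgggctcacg
ERCC1: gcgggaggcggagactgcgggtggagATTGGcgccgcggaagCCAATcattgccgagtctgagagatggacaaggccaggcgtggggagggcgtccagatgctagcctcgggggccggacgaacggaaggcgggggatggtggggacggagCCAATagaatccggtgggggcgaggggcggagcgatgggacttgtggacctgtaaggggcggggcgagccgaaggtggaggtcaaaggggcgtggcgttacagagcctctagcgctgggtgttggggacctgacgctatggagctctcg
EXO1: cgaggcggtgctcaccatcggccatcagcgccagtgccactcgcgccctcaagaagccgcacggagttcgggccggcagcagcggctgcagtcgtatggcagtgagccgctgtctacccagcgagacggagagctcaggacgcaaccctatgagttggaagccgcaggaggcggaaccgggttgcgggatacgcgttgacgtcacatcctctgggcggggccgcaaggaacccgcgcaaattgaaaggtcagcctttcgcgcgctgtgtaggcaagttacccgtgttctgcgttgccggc
The ERCC1 window is 1 of 3 listed for that gene and the EXO1 window 1 of 2, and the 1 shown has most annotated transcript starts near it. The CpG count was 16 in CHEK2, 27 in ERCC1 and 33 in EXO1, against a median of 14 over all 35116 windows of the table. CHEK2 and ERCC1 each hold 3 CCAAT matches, and EXO1 holds no match to these letters. The window of MSH3, the member with the next largest rise after CHEK2, is not printed. It holds a TTTGGCGC match that starts at base 144. Over the 68 windows of the 46 repair genes in the table, the median was 25.5 CpG and 64.3% GC, against 14 CpG and 58.7% GC over all windows. TTTCCCGC was in 7.35% of the repair gene windows (5 of 68) and 1.63% of all windows, and TTTGGCGC in 2.94% (2 of 68) and 0.652%. CCAAT was in 45.6% and 34.6%, and TTTGAA in 11.8% and 15.2%. Windows of the same gene were counted separately, and the shares of the E2F-type letters rest on these few windows. These are descriptions of letters, and no binding was measured in these libraries.

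Mismatch repair held a member that rose and a member that fell (50% of 4 tested members, against 23.0% of all genes). MSH3, whose protein recognises larger insertion and deletion loops, had 27.3, 25.5 and 27.4 CPM in resistant libraries, against 15.4, 17.1 and 17.6 CPM in sensitive libraries. All resistant libraries were above all sensitive libraries, and replicates lay close together. The means were 26.7 ± 1.09 CPM in resistant cells and 16.7 ± 1.16 CPM in sensitive cells (SD, n = 3 each), a 1.60-fold difference (log2 fold change 0.68 ± 0.15 SE, edgeR adjusted p = 0.00961). The call was lost without sensitive library 1 (edgeR adjusted p = 0.0708) or sensitive library 2 (0.0521). The strand setting of the counting is not given in the sources used here, so reads of overlapping genes may be in this count.

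EXO1, the exonuclease that removes the strand holding the error and also resects broken ends, had 98.7, 108 and 155 CPM in resistant libraries, against 199, 206 and 212 CPM in sensitive libraries. Groups did not overlap, and resistant library 3 lay nearest to the sensitive libraries. The means were 121 ± 30.5 CPM in resistant cells and 206 ± 6.97 CPM in sensitive cells (SD, n = 3 each), 1.71-fold lower in resistant cells (log2 fold change −0.77 ± 0.19 SE, edgeR adjusted p = 0.0180). The call was kept without resistant library 3 (edgeR adjusted p = 0.00116) and lost on leaving out any other library, with adjusted p from 0.0539 to 0.123. EXO1 lies at chr1:241847967-241895148.

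MSH6, the partner that recognises single mismatches, had 195, 216 and 278 CPM in resistant libraries, against 262, 253 and 290 CPM in sensitive libraries, and did not pass (log2 fold change −0.23 ± 0.18, edgeR adjusted p = 0.409). PMS2, an endonuclease subunit with near-identical pseudogene copies that make its count uncertain, averaged 52.9 ± 8.95 CPM in resistant cells and 51.4 ± 3.00 CPM in sensitive cells (SD, n = 3 each). The groups overlapped for both. Of 14 other mismatch repair and resynthesis genes, 1 fell and 13 did not pass (7.14% called, against 23.0% of all genes). The one that fell was POLD3, a subunit of DNA polymerase delta, at 32.6 ± 4.98 CPM in resistant cells and 47.6 ± 3.02 CPM in sensitive cells (SD, n = 3 each; edgeR adjusted p = 0.0331, from 0.0775 to 0.161 without any library but resistant 3).

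Within each library, the count of MSH3 per count of MSH6 was 0.140, 0.118 and 0.0985 in resistant libraries, against 0.0586, 0.0676 and 0.0605 in sensitive libraries. EXO1 per MSH6 averaged 0.521 ± 0.0330 in resistant libraries and 0.767 ± 0.0412 in sensitive libraries (SD, n = 3 each). Neither ratio overlapped between the groups, and a ratio within a library does not depend on the scaling between libraries. These pairs, and those below, were chosen after the values were seen and carry no test. Of 12 pairs computed, 6 did not overlap between the groups and 6 did, which were FANCI per FANCD2, XRCC1 per LIG3, XRCC4 per LIG4, BRCA2 per PALB2, MRE11 per NBN and PARP2 per PARP1.

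**Figure D2:**
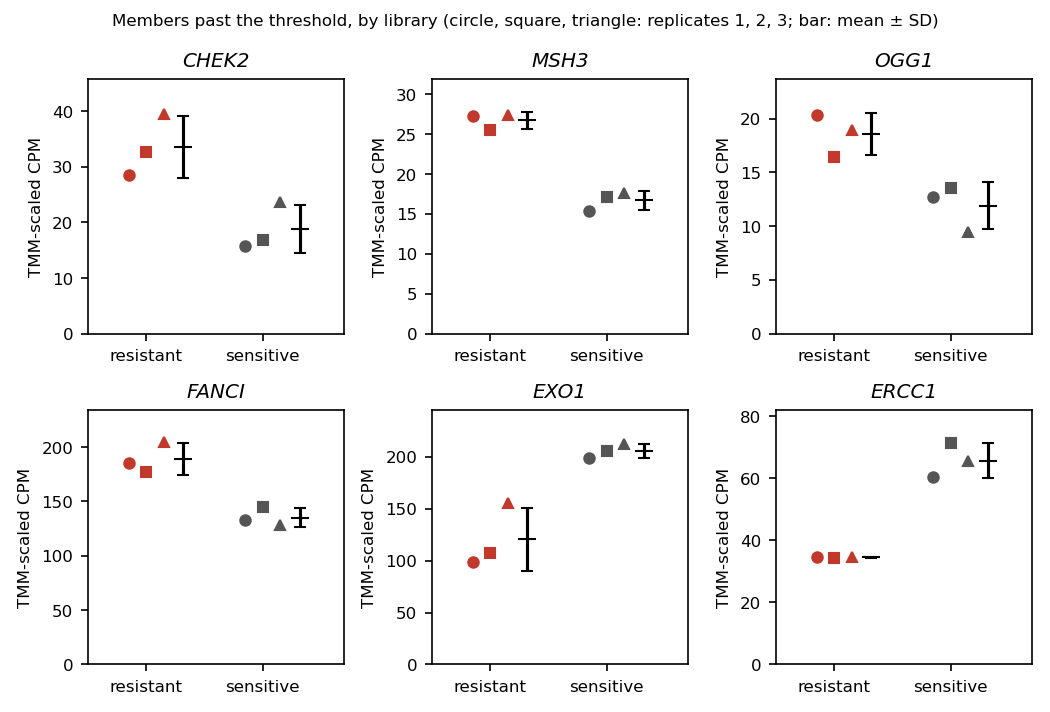
CPM on TMM-scaled totals (vertical axis, from 0) for the 6 repair genes past the threshold, in resistant libraries (red, left) and sensitive libraries (grey, right), with circle, square and triangle for replicates 1, 2 and 3 and a bar for the mean ± SD of 3 libraries. The groups do not overlap in any panel, and the 3 resistant values of ERCC1 lie within 34.3 and 34.8 CPM.

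Direct reversal was represented by MGMT, the methyltransferase that takes alkyl groups off guanine. It had 0, 3 and 2 counts in resistant libraries, against 0, 0 and 0 counts in sensitive libraries. Both groups were at or under the floor of 3 counts per library, so MGMT did not pass the filter on low counts and no fold change is given. Of the 2 other direct reversal genes, both dioxygenases that remove alkyl groups oxidatively, ALKBH3 fell. It had 12.0, 14.96 and 18.5 CPM in resistant libraries, against 29.8, 28.4 and 33.8 CPM in sensitive libraries, a log2 fold change of −1.02 ± 0.19 (edgeR adjusted p = 0.00406). ALKBH2 averaged 19.3 ± 7.02 CPM in resistant cells and 26.4 ± 2.43 CPM in sensitive cells (SD, n = 3 each), with overlapping groups.

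Base excision and single-strand break repair showed 1 rise among 10 tested members (10% called, against 23.0% of all genes). OGG1, the glycosylase that cuts out oxidised guanine, had 20.3, 16.4 and 19.0 CPM in resistant libraries, against 12.7, 13.6 and 9.46 CPM in sensitive libraries. Every resistant library was above every sensitive library. The means were 18.6 ± 1.97 CPM in resistant cells and 11.9 ± 2.17 CPM in sensitive cells (SD, n = 3 each), a 1.56-fold difference (log2 fold change 0.64 ± 0.19 SE, edgeR adjusted p = 0.0370). The call was kept without resistant library 3 (0.0472) and lost on leaving out any other library, with edgeR adjusted p from 0.0698 to 0.103. OGG1 (chr3:9749944-9788219) shares 25.0% of its exon bases with CAMK1 on the opposite strand. CAMK1, a calmodulin-dependent kinase gene, averaged 4.80 ± 0.791 CPM in resistant cells and 2.24 ± 0.597 CPM in sensitive cells (SD, n = 3 each; edgeR adjusted p = 0.0225). The strand setting of the counting is not given in the sources used here, and the part of CAMK1 reads in the OGG1 count was not tested.

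The other glycosylases did not pass. UNG, which removes uracil, had 42.9, 47.9 and 76.9 CPM in resistant libraries, against 47.0, 35.0 and 50.3 CPM in sensitive libraries, and the groups overlapped. MUTYH, which removes adenine opposite oxidised guanine, had the lowest level per kilobase of exon among the tested members in both groups, with means of 0.703 CPM per kb in resistant cells and 0.685 CPM per kb in sensitive cells. APEX1, the endonuclease that cuts at the site left behind, averaged 54.3 ± 2.97 CPM in resistant cells and 61.8 ± 22.8 CPM in sensitive cells (SD, n = 3 each). Its sensitive libraries spread from 39.9 to 85.4 CPM, more than the difference between the groups.

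The strand break sensors and their scaffold overlapped between groups. PARP1, which marks breaks with ADP-ribose chains, had 379, 391 and 411 CPM in resistant libraries, against 354, 362 and 556 CPM in sensitive libraries (log2 fold change −0.11 ± 0.21). PARP2 averaged 20.4 ± 0.782 CPM in resistant cells and 21.6 ± 4.77 CPM in sensitive cells (SD, n = 3 each), and the scaffold gene XRCC1 averaged 14.6 ± 1.58 CPM in resistant cells and 16.6 ± 2.05 CPM in sensitive cells. Among gap filling and sealing genes, POLB, the repair polymerase beta, had 26.3, 26.7 and 41.3 CPM in resistant libraries, against 39.2, 40.3 and 45.9 CPM in sensitive libraries. Its log2 fold change was −0.41 ± 0.20 (edgeR adjusted p = 0.168), and −0.44 with the replicate block, where it passed (edgeR adjusted p = 0.0417). The ligase gene LIG3, at 80.4 ± 5.94 CPM in resistant cells and 97.0 ± 1.65 CPM in sensitive cells (SD, n = 3 each), did not overlap between groups but did not pass (edgeR adjusted p = 0.191). LIG1, the replicative ligase, averaged 82.4 ± 2.74 CPM in resistant cells and 86.9 ± 1.90 CPM in sensitive cells.

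Of 15 other genes of the pathway, 1 fell and 14 did not pass (6.67% called, against 23.0% of all genes). APLF, a scaffold that recruits end-processing factors to ADP-ribose, had 2.10, 2.14 and 2.86 CPM in resistant libraries, against 8.29, 7.03 and 9.11 CPM in sensitive libraries. The groups lay far apart, at 3.44-fold lower in resistant cells (log2 fold change −1.78 ± 0.25 SE, edgeR adjusted p = 7.22e-04).

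Among genes for crosslinked protein and blocked ends, none of the 3 members passed with edgeR, none had an unadjusted p below 0.05, and DESeq2 and limma-voom called none. SPRTN, the protease that degrades proteins crosslinked to DNA at replication forks, had 23.4, 26.4 and 33.1 CPM in resistant libraries, against 26.5, 30.9 and 40.3 CPM in sensitive libraries. In both groups library 3 was the highest. TDP1 and TDP2, the phosphodiesterases that release topoisomerase remnants from DNA ends, had log2 fold changes of −0.28 ± 0.16 and −0.20 ± 0.21. Without both libraries numbered 3, TDP1 passed as lower (log2 fold change −0.36, edgeR adjusted p = 0.0295).

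The 8 other genes in this group held 3 rises, 0 falls and 5 that did not pass. That is 37.5% higher, against 9.83% of all genes, and 0% lower, against 13.1% of all genes. These genes were listed with earlier results of these data known. GCNA, a germ cell protein with a SPRTN-type protease domain, had 28.04, 30.02 and 57.6 CPM in resistant libraries, against 3.94, 4.63 and 5.22 CPM in sensitive libraries. All resistant libraries were well above all sensitive libraries, an 8.39-fold difference (log2 fold change 3.07 ± 0.30 SE, edgeR adjusted p = 8.33e-05). DDI2, a protease that acts with the proteasome, rose to 75.8 ± 2.89 CPM in resistant cells, against 43.9 ± 2.37 CPM in sensitive cells (SD, n = 3 each; edgeR adjusted p = 0.00263). FAM111A, a protease that helps forks past protein obstacles, rose to 15.2 ± 3.10 CPM in resistant cells, against 5.45 ± 2.32 CPM in sensitive cells (SD, n = 3 each; edgeR adjusted p = 0.00808). All 3 calls were kept on leaving out any single library.

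Nucleotide excision repair held the fall with the smallest adjusted p among the repair genes. ERCC1, which with ERCC4 (XPF) forms the nuclease that cuts on the 5′ side of a lesion and also acts on crosslinks, had 34.6, 34.3 and 34.8 CPM in resistant libraries, against 60.3, 71.3 and 65.6 CPM in sensitive libraries. The resistant libraries were nearly identical and all far below the sensitive libraries. The means were 34.5 ± 0.228 CPM in resistant cells and 65.7 ± 5.51 CPM in sensitive cells (SD, n = 3 each), 1.90-fold lower in resistant cells (log2 fold change −0.93 ± 0.14 SE, edgeR adjusted p = 0.00120). The call was kept on leaving out any single library, with edgeR adjusted p from 0.00146 to 0.0156, and the log2 fold change ranged from −1.01 to −0.76 over all alternatives run. ERCC1 is annotated at chr19:45407333-45478828, and 28.6% of its exon bases are shared with CD3EAP (also named POLR1G), an RNA polymerase I subunit gene on the opposite strand. That gene went the other way, at 8.15 ± 1.82 CPM in resistant cells and 3.84 ± 1.02 CPM in sensitive cells (SD, n = 3 each; edgeR adjusted p = 0.0177).

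Partners of ERCC1 did not pass. ERCC4 had 17.97, 15.8 and 16.9 CPM in resistant libraries, against 15.5, 16.6 and 16.3 CPM in sensitive libraries (log2 fold change 0.067 ± 0.16). The count of ERCC1 per count of ERCC4 was 1.92, 2.17 and 2.05 in resistant libraries, against 3.89, 4.29 and 4.03 in sensitive libraries, with no overlap. ERCC1 per ERCC2 averaged 0.886 ± 0.108 in resistant libraries and 1.61 ± 0.207 in sensitive libraries (SD, n = 3 each), also with no overlap. ERCC2 and ERCC3, the helicases of the transcription factor IIH complex, had log2 fold changes of −0.062 ± 0.15 and 0.16 ± 0.14. ERCC2 lies beside ERCC1 on chromosome 19, at 45349837 to 45370918.

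Of the damage recognition genes, XPC had 21.2, 21.3 and 23.4 CPM in resistant libraries, against 31.0, 25.0 and 22.7 CPM in sensitive libraries. The groups overlapped through sensitive library 3, and XPC did not pass (edgeR adjusted p = 0.310). XPA, which verifies the lesion, averaged 17.8 ± 1.05 CPM in resistant cells and 17.6 ± 2.08 CPM in sensitive cells (SD, n = 3 each). ERCC5, the nuclease (XPG) that cuts on the 3′ side, had 6.06, 6.74 and 6.98 CPM in resistant libraries, against 8.85, 8.99 and 9.21 CPM in sensitive libraries. Groups did not overlap, yet ERCC5 did not pass (log2 fold change −0.45 ± 0.19, edgeR adjusted p = 0.117). It shares 63.2% of its exon bases with the readthrough gene BIVM-ERCC5, which has 0 counts in these libraries, so its own count is uncertain. Of 15 other tested genes of the pathway, 1 fell and 14 did not pass (6.67% called, against 23.0% of all genes). DDB2, a lesion sensor, fell to 22.2 ± 0.483 CPM in resistant cells, against 39.6 ± 5.33 CPM in sensitive cells (SD, n = 3 each; edgeR adjusted p = 0.00409).

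**Figure D3:**
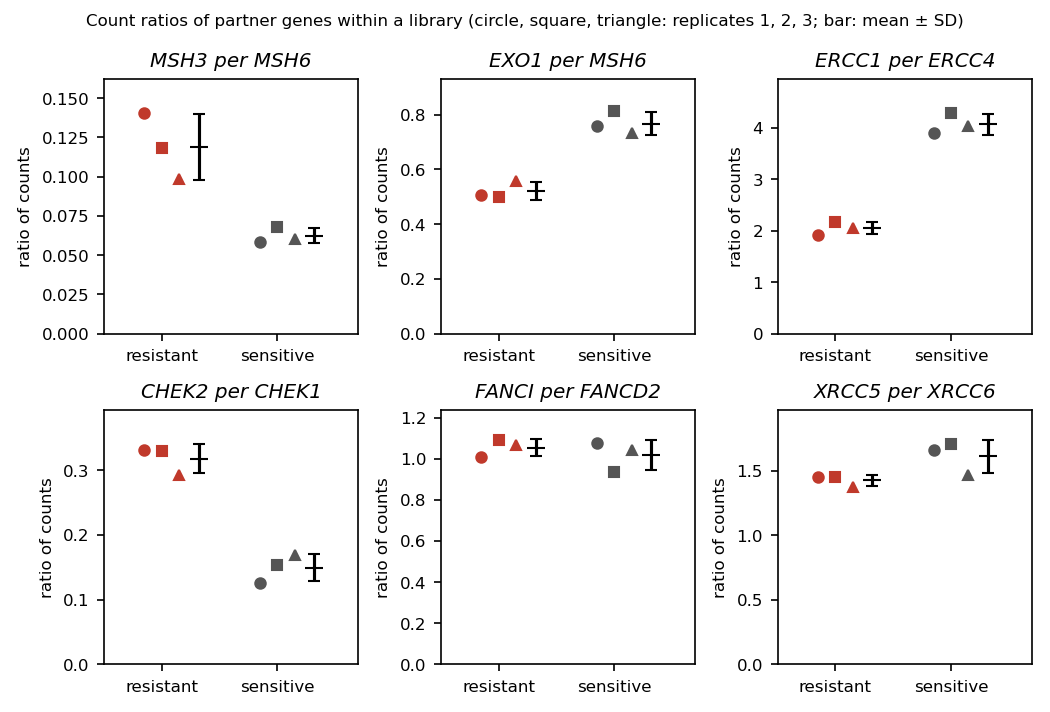
Ratio of raw counts of partner genes within each library (vertical axis, from 0), resistant libraries left in red and sensitive libraries right in grey, with circle, square and triangle for replicates 1, 2 and 3 and a bar for the mean ± SD. MSH3 per MSH6 and CHEK2 per CHEK1 are higher and EXO1 per MSH6, ERCC1 per ERCC4 and XRCC5 per XRCC6 lower in all 3 resistant libraries, and FANCI per FANCD2 overlaps.

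In homologous recombination none of the 8 members passed with edgeR, 1 had an unadjusted p below 0.05 (WRN), and DESeq2 and limma-voom called none. The median log2 fold change of the 8 was 0.17. The largest was that of RAD51C, a recombinase paralogue, with 54.1, 61.3 and 79.99 CPM in resistant libraries, against 42.3, 40.8 and 68.0 CPM in sensitive libraries. Library 3 was its highest in each group, and the log2 fold change of 0.37 ± 0.23 (edgeR adjusted p = 0.279) became 0.39 with the replicate block, where it passed (edgeR adjusted p = 0.0418). WRN, a helicase of the RecQ family, had 166, 163 and 180 CPM in resistant libraries, against 130, 129 and 142 CPM in sensitive libraries. All resistant libraries were above all sensitive libraries, but WRN did not pass (log2 fold change 0.34 ± 0.15, edgeR adjusted p = 0.124). It passed with upper quartile factors (edgeR adjusted p = 0.0381), library totals alone (0.0208), at least 50 counts in 3 libraries (0.0482) and length and GC offsets (0.0326). RAD51C also passed with length and GC offsets (edgeR adjusted p = 0.0321). BLM, the RecQ helicase that dissolves joint molecules, averaged 111 ± 10.8 CPM in resistant cells and 90.2 ± 11.3 CPM in sensitive cells (SD, n = 3 each).

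The recombination mediators differed by less. BRCA1, which promotes end resection, averaged 186 ± 21.8 CPM in resistant cells and 211 ± 7.04 CPM in sensitive cells (SD, n = 3 each; log2 fold change −0.18 ± 0.16). BRCA2, which loads the recombinase, had 82.4, 91.2 and 82.8 CPM in resistant libraries, against 78.7, 76.0 and 77.5 CPM in sensitive libraries (log2 fold change 0.14 ± 0.13, edgeR adjusted p = 0.487). The groups of BRCA2 did not overlap, although they were only a few CPM apart. PALB2, which links BRCA1 and BRCA2, RAD52, an annealing factor, and the motor gene RAD54L had log2 fold changes of 0.13, −0.11 and 0.19, with overlapping groups. RAD54L had its highest value in resistant library 1 (28.6 CPM) and its lowest in resistant library 3 (16.1 CPM), a spread that held all 3 sensitive values.

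Without both libraries numbered 3, RAD51C, BLM and WRN passed as higher (log2 fold changes 0.46, 0.32 and 0.33). Of 18 other genes of this pathway, 1 rose, 3 fell and 14 did not pass. That is 22.2% called, near the 23.0% of all genes. XRCC2, another recombinase paralogue, rose to 130 ± 20.8 CPM in resistant cells, against 79.7 ± 3.37 CPM in sensitive cells (SD, n = 3 each; edgeR adjusted p = 0.0111, and 0.0592 without sensitive library 1 or 0.0590 without sensitive library 2). RECQL, a RecQ helicase, fell to 35.4 ± 9.80 CPM in resistant cells, against 64.6 ± 10.4 CPM in sensitive cells (edgeR adjusted p = 0.0164, and 0.0526, 0.0972 and 0.0649 without resistant library 1, resistant library 2 or sensitive library 3). EME1, a nuclease subunit, fell to 21.6 ± 5.21 CPM in resistant cells, against 35.0 ± 3.00 CPM in sensitive cells (edgeR adjusted p = 0.0264, and from 0.0731 to 0.144 without resistant library 1 or 2 or sensitive library 1 or 2). RMI2, a partner of BLM named after its value was seen, fell to 28.9 ± 1.05 CPM in resistant cells, against 40.5 ± 2.08 CPM in sensitive cells (edgeR adjusted p = 0.0306, and from 0.0648 to 0.157 without the same libraries).

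Fanconi anaemia crosslink repair had 1 rise among 6 members (16.7% called, against 23.0% of all genes). FANCI, which with FANCD2 forms the clamp that is ubiquitinated at crosslinks, had 186, 177 and 205 CPM in resistant libraries, against 133, 144 and 128 CPM in sensitive libraries. Groups did not overlap. The means were 189 ± 14.4 CPM in resistant cells and 135 ± 8.43 CPM in sensitive cells (SD, n = 3 each), a 1.40-fold difference (log2 fold change 0.49 ± 0.15 SE, edgeR adjusted p = 0.0426). This call was the least stable of the 6: it was lost on leaving out any single library (edgeR adjusted p from 0.0587 to 0.180), with no filter on low counts (0.114), and without mitochondrial, ribosomal and the most abundant features (0.0540). FANCI (chr15:89243949-89317261) shares 5.90% of its exon bases with POLG, the mitochondrial polymerase gene on the opposite strand, which was higher as well (log2 fold change 0.67, edgeR adjusted p = 0.00814).

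FANCD2 had 184, 162 and 193 CPM in resistant libraries, against 124, 154 and 123 CPM in sensitive libraries. Groups did not overlap, but FANCD2 did not pass (log2 fold change 0.43 ± 0.16, edgeR adjusted p = 0.0880), and it passed with the replicate block (log2 fold change 0.43, edgeR adjusted p = 0.0447). The count of FANCI per count of FANCD2 averaged 1.05 ± 0.0414 in resistant libraries and 1.02 ± 0.0722 in sensitive libraries (SD, n = 3 each), and overlapped. FANCD2 has pseudogene copies that make its count uncertain. The core complex genes FANCA, FANCB and FANCC and the translocase gene FANCM had log2 fold changes of 0.16, −0.13, 0.12 and 0.19, all with overlapping groups. Within the core complex, FANCA was highest in resistant library 1 (94.6 CPM) and lowest in sensitive library 3 (57.9 CPM).

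Of 12 other Fanconi genes, 2 rose, 1 fell and 9 did not pass. That is 25% called, near the 23.0% of all genes. Of the core complex genes, FAAP20 rose to 21.2 ± 0.595 CPM in resistant cells, against 14.6 ± 0.261 CPM in sensitive cells (SD, n = 3 each; edgeR adjusted p = 0.0282). FAAP100 rose to 48.3 ± 1.57 CPM in resistant cells, against 35.5 ± 3.26 CPM in sensitive cells (edgeR adjusted p = 0.0473). UBE2T, the enzyme that delivers ubiquitin to the FANCI and FANCD2 clamp, fell to 77.3 ± 23.3 CPM in resistant cells, against 128 ± 7.24 CPM in sensitive cells (edgeR adjusted p = 0.0304). All 3 calls passed without resistant library 3 and were lost on leaving out any other library, with edgeR adjusted p from 0.0509 to 0.197.

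Break sensing and checkpoint signalling had 1 rise among 8 members (12.5% called, against 23.0% of all genes). CHEK2, the checkpoint kinase that ATM activates after breaks, had 28.5, 32.7 and 39.5 CPM in resistant libraries, against 15.8, 16.8 and 23.8 CPM in sensitive libraries. The lowest resistant library was above the highest sensitive library, and library 3 was the highest in each group. The means were 33.6 ± 5.59 CPM in resistant cells and 18.8 ± 4.34 CPM in sensitive cells (SD, n = 3 each), a 1.79-fold difference (log2 fold change 0.84 ± 0.20 SE, edgeR adjusted p = 0.0158). The call was lost without resistant library 2 (edgeR adjusted p = 0.0643), sensitive library 1 (0.0882) or sensitive library 2 (0.0825). CHEK2 lies at chr22:28687743-28742422 and has pseudogene copies elsewhere that make its count uncertain.

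CHEK1, the kinase that ATR activates at stalled forks, had 86.1, 98.9 and 135 CPM in resistant libraries, against 125, 109 and 141 CPM in sensitive libraries, and did not pass (log2 fold change −0.23 ± 0.20). The count of CHEK2 per count of CHEK1 was 0.331, 0.330 and 0.293 in resistant libraries, against 0.127, 0.154 and 0.168 in sensitive libraries, with no overlap. ATM, the kinase that responds to broken ends, averaged 245 ± 8.32 CPM in resistant cells and 210 ± 4.48 CPM in sensitive cells (SD, n = 3 each). Its groups did not overlap, but ATM did not pass (log2 fold change 0.22 ± 0.15, edgeR adjusted p = 0.325). ATR, at 84.1, 85.4 and 78.2 CPM in resistant libraries, against 54.8, 64.7 and 82.4 CPM in sensitive libraries, overlapped through sensitive library 3. TP53BP1, which shields ends from resection, had a log2 fold change of 0.13 ± 0.17.

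No gene of the end-binding complex of MRE11, RAD50 and NBN passed. MRE11, the nuclease, averaged 93.2 ± 6.10 CPM in resistant cells and 103 ± 4.09 CPM in sensitive cells (SD, n = 3 each), with groups that did not overlap and a log2 fold change of −0.15 ± 0.14. NBN, the adaptor that recruits ATM, averaged 117 ± 21.4 CPM in resistant cells and 111 ± 7.98 CPM in sensitive cells. RAD50, the tether, averaged 7.20 ± 1.05 CPM in resistant cells and 7.08 ± 2.24 CPM in sensitive cells, but it shares 79.7% of its exon bases with a readthrough gene that has 0 counts, so this low level is uncertain. Of 15 other genes of this group, 2 rose, 1 fell and 12 did not pass (20% called, against 23.0% of all genes). HUS1, a subunit of the checkpoint clamp, had 26.2, 21.7 and 21.2 CPM in resistant libraries, against 9.09, 10.9 and 11.7 CPM in sensitive libraries (log2 fold change 1.13 ± 0.18, edgeR adjusted p = 0.00160). PAXIP1, an adaptor at breaks, rose to 43.5 ± 4.30 CPM in resistant cells, against 26.2 ± 0.295 CPM in sensitive cells (edgeR adjusted p = 0.00561). RNF168, the ubiquitin ligase that marks chromatin at breaks, fell to 34.9 ± 0.359 CPM in resistant cells, against 51.2 ± 3.06 CPM in sensitive cells (edgeR adjusted p = 0.0162, and 0.0906, 0.0778 and 0.0598 without resistant library 2, sensitive library 1 or sensitive library 2).

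In non-homologous end joining none of the 5 members passed with edgeR or limma-voom, 1 had an unadjusted p below 0.05 (PRKDC), and DESeq2 called 1, PRKDC. PRKDC, the catalytic subunit of the DNA-dependent protein kinase, had 1485, 1434 and 1286 CPM in resistant libraries, against 940, 954 and 1086 CPM in sensitive libraries. It had the highest CPM of the set, and its groups did not overlap. Its log2 fold change was 0.50 ± 0.19 (edgeR adjusted p = 0.0902), and it passed with the replicate block (log2 fold change 0.50, edgeR adjusted p = 0.0196) and with DESeq2 (adjusted p = 0.00860). XRCC5 and XRCC6 encode the Ku subunits that encircle broken ends. XRCC5 had 476, 575 and 806 CPM in resistant libraries, against 597, 612 and 924 CPM in sensitive libraries, and XRCC6 had 328, 396 and 586 CPM in resistant libraries, against 359, 359 and 630 CPM in sensitive libraries.

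For both Ku genes library 3 was the highest of each group, and the spread within a group exceeded the difference between groups. Within a library, XRCC5 per XRCC6 averaged 1.43 ± 0.0423 in resistant libraries and 1.61 ± 0.127 in sensitive libraries (SD, n = 3 each), with all resistant values lower. Per kilobase of exon, XRCC6 had the highest mean level of the 52 genes, 133 CPM per kb in resistant cells and 137 CPM per kb in sensitive cells. XRCC5 followed with 113 CPM per kb in resistant cells and 130 CPM per kb in sensitive cells, and then PRKDC with 90.9 CPM per kb in resistant cells and 64.4 CPM per kb in sensitive cells. XRCC4, the scaffold of the ligase, averaged 11.2 ± 2.82 CPM in resistant cells and 15.1 ± 2.43 CPM in sensitive cells (SD, n = 3 each; log2 fold change −0.44 ± 0.22, edgeR adjusted p = 0.192). LIG4, the ligase, averaged 21.4 ± 1.27 CPM in resistant cells and 22.1 ± 1.81 CPM in sensitive cells. Of 6 other end-joining genes, edgeR, DESeq2 and limma-voom each called 0, and 0 had an unadjusted p below 0.05.

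**Figure D4:**
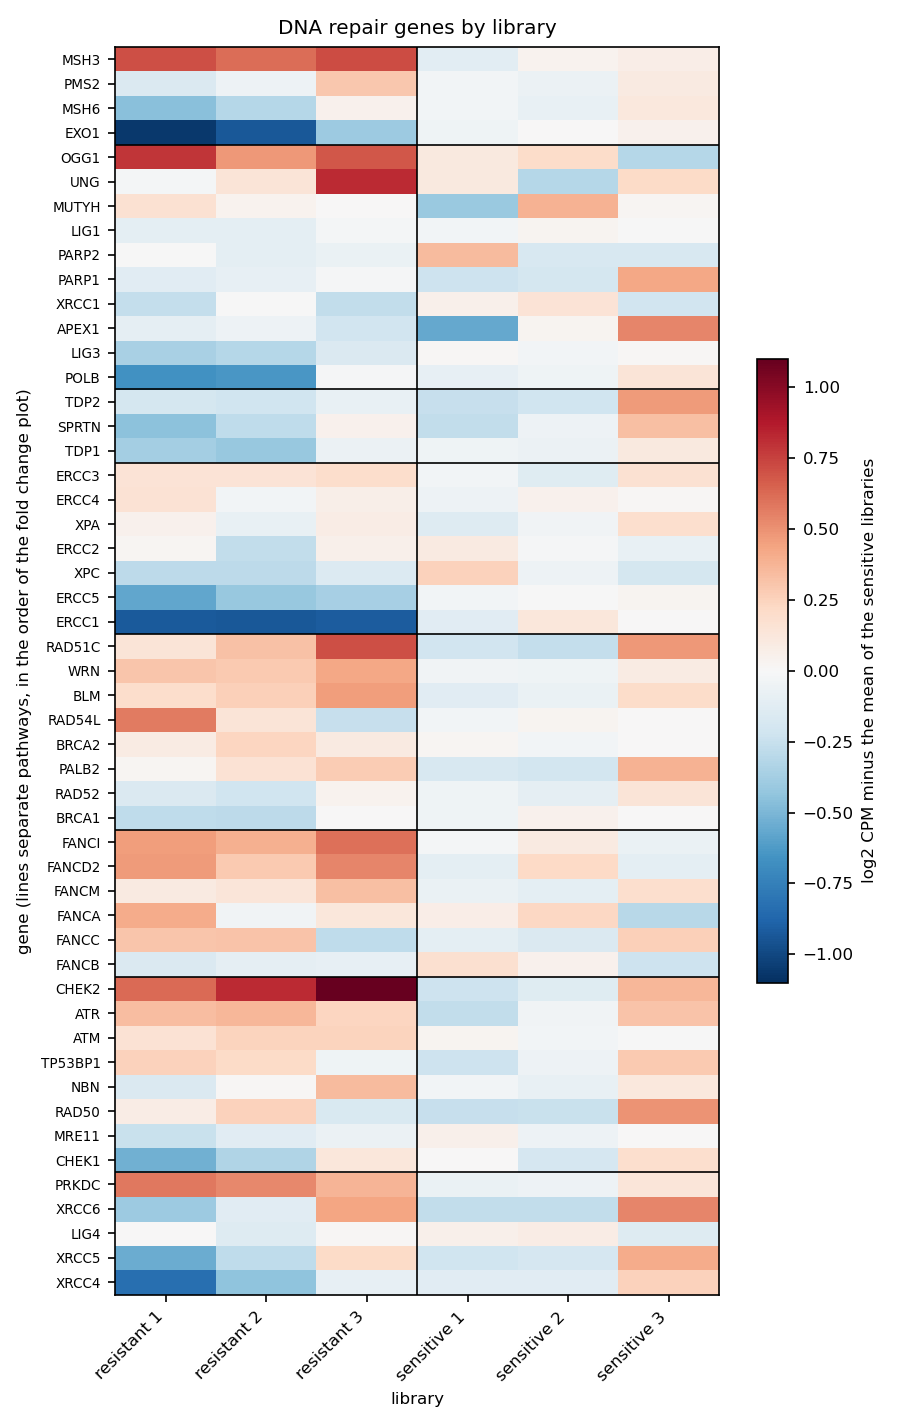
Log2 CPM of each of the 51 tested repair genes (rows, in pathway order) minus the mean of the 3 sensitive libraries, for the 3 resistant libraries (left) and the 3 sensitive libraries (right), red above and blue below that mean. CHEK2, MSH3, OGG1 and FANCI are red and ERCC1 and EXO1 blue in all 3 resistant libraries, whereas XRCC5 and XRCC6 are blue in resistant libraries 1 and 2 and red in resistant library 3.

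Across pathways the medians of the members' log2 fold changes lay between −0.24 and 0.17. They were −0.093 for mismatch repair, −0.095 for base excision, −0.24 for crosslinked protein removal, −0.062 for nucleotide excision, 0.17 for both recombination and the Fanconi anaemia genes, 0.10 for checkpoint genes and −0.043 for end joining. Over the other tested genes of the same pathways the medians were −0.16 for mismatch repair, 0.0040 for base excision, 0.25 for crosslinked protein removal, −0.085 for nucleotide excision, −0.12 for recombination, −0.14 for the Fanconi anaemia genes, 0.065 for checkpoint genes and −0.094 for end joining. The members and the other genes thus had medians of opposite sign in recombination, in the Fanconi anaemia genes and in crosslinked protein removal. In base excision the median of the other genes, 0.0040, was too small for a contrast of sign. The sign of the members' median turned for mismatch repair without resistant library 1 (0.0085), for nucleotide excision without resistant library 2 (0.035), and for end joining without resistant library 2 (0.0061) or sensitive library 3 (0.032). Scaling by library totals alone put the median of all genes at 0.20 and turned the sign for mismatch repair (0.077), base excision (0.078), nucleotide excision (0.10) and end joining (0.12). As the median deviation from the sensitive mean of each gene, end joining had −0.40, −0.14 and 0.21 in resistant libraries 1, 2 and 3, against −0.13, −0.13 and 0.26 in sensitive libraries 1, 2 and 3. The libraries of a group thus differed by more than the groups did. The Fanconi anaemia genes had 0.35, 0.21 and 0.23 in resistant libraries, against −0.050, 0.075 and −0.093 in sensitive libraries, with no overlap. The groups did not overlap in 2 other pathways. These medians carry no test, and 40.1% of all genes, taken singly, did not overlap either. Recombination had 0.117, 0.20 and 0.19 in resistant libraries, against −0.048, −0.063 and 0.115 in sensitive libraries. Resistant library 1 (0.117) and sensitive library 3 (0.115) nearly met, so this separation is very slight. Base excision had −0.10, −0.070 and −0.019 in resistant libraries, against −0.0089, −0.0012 and 0.019 in sensitive libraries. Its nearest values, −0.019 in resistant library 3 and −0.0089 in sensitive library 1, lay close together.

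Neighbouring genes were read beside each member, as the median log2 fold change of up to 20 tested protein-coding genes, 10 on each side. The median was at least 0.5 in size for 5 of the members. FANCI lay in a stretch that was higher, with a neighbour median of 0.98, and 10 of its 20 neighbours rose and 0 fell. TICRR, a replication initiation gene nearby, had a log2 fold change of 1.07 (edgeR adjusted p = 0.00413). On the other side of FANCI, the 3 nearest tested genes, ABHD2, MFGE8 and HAPLN3, had log2 fold changes of −0.39, −0.74 and −2.14 and did not pass (edgeR adjusted p = 0.0983, 0.108 and 0.0705). EXO1 lay in a stretch that was lower, with a median of −0.62, and 0 of its 20 neighbours rose and 8 fell. ERCC5 had the lowest median, −0.80, with 0 of 20 neighbours higher and 11 lower, and SPRTN had −0.59. FANCB differed from its surroundings, with a log2 fold change of −0.13 beside a neighbour median of −0.74.

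For the other members past the threshold, neighbour medians were smaller in size than the member's own value. ERCC1, with −0.93, had a neighbour median of −0.21, with 5 neighbours higher and 4 lower. MSH3, with 0.68, had a median of −0.28, with 2 higher and 3 lower. FAM151B, near MSH3, was 1 of those higher (log2 fold change 1.79, edgeR adjusted p = 0.0189). CHEK2, with 0.84, had a median of −0.20, with 4 higher and 6 lower. On one side of CHEK2, TTC28 rose as well, with a log2 fold change of 1.16 (edgeR adjusted p = 0.0113). So did PITPNB, a phospholipid transfer protein gene, with 0.81 (edgeR adjusted p = 0.00553). MN1, the next tested gene on that side, had −1.64 and did not pass (edgeR adjusted p = 0.180). On the other side HSCB and CCDC117 did not pass (log2 fold changes −0.0062 and 0.53) and XBP1, a stress transcription factor gene, fell (−0.73, edgeR adjusted p = 0.0253). OGG1, with 0.64, had a median of 0.18, with 5 higher and 1 lower, among them its direct neighbour BRPF1, a chromatin reader gene (log2 fold change 0.86, edgeR adjusted p = 0.00186).

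**Figure D5:**
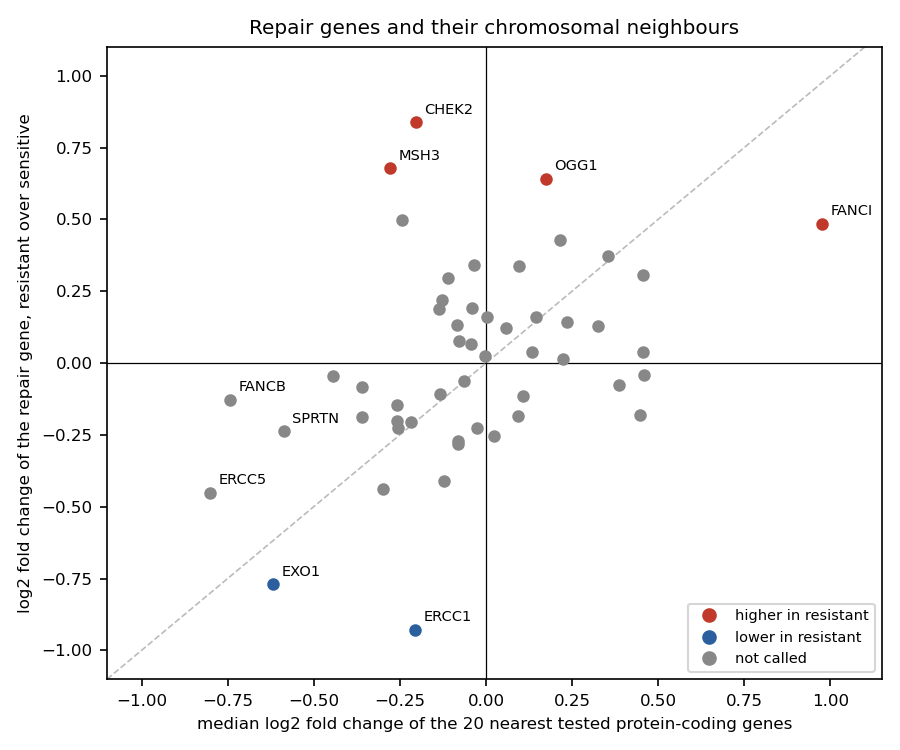
Log2 fold change of each tested repair gene, resistant over sensitive (vertical axis), against the median log2 fold change of up to 20 nearest tested protein-coding genes (horizontal axis), with a dashed line where the values are equal. FANCI (median 0.98) and EXO1 (median −0.62) lie on the same side of 0 as their neighbours, while MSH3 and CHEK2 are higher beside neighbour medians of −0.28 and −0.20.

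Over the 9 pathways together, 105 of 106 other repair genes were tested, and 8 rose, 9 fell and 88 did not pass. That is 16.2% of them, against 23.0% of all genes. With library totals alone the calls of POLD3, EME1, RMI2, UBE2T and RNF168 were lost, with no filter those of RMI2, FAAP20 and FAAP100, and with length and GC offsets those of RMI2, FAAP20 and FAAP100 (edgeR adjusted p from 0.0572 to 0.161). The call of RMI2 was also lost with upper quartile factors (edgeR adjusted p = 0.0566), and that of FAAP100 without the most abundant features (0.0530). Of 26 genes of replication and division, listed because many repair genes are read most in dividing cells, 1 rose, 1 fell and 24 did not pass, with a median log2 fold change of −0.17. The called share was 7.69%, against 23.0% of all genes. MKI67, the proliferation antigen gene, had 393, 310 and 187 CPM in resistant libraries, against 181, 175 and 157 CPM in sensitive libraries (edgeR adjusted p = 0.0452, and from 0.114 to 0.145 without any library but resistant 3). With limma-voom MKI67 did not pass (adjusted p = 0.0610). Resistant library 3 was close to the sensitive libraries. TK1, thymidine kinase, fell to 84.0 ± 7.87 CPM in resistant cells, against 132 ± 19.99 CPM in sensitive cells (SD, n = 3 each; edgeR adjusted p = 0.0185, and from 0.0607 to 0.0870 without resistant library 1 or 2 or sensitive library 1 or 2 or with library totals alone). Their part in the values of the repair genes was not tested.

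Genes that cells switch on after DNA damage or stress were read beside the repair genes. Among 14 such genes with enough counts, 1 rose and 8 fell, with a median log2 fold change of −0.89. That is 7.14% higher and 57.1% lower, against 9.83% and 13.1% of all genes. The list was chosen with earlier results of these data known, so these shares are no independent test. Functional p53 is lost in this line, and whether damage signalling differed between the groups was not tested. Of the 8 falls, that of RRM2B, a ribonucleotide reductase subunit gene, was lost without any library but resistant 3 (edgeR adjusted p from 0.0651 to 0.157) and with library totals alone (0.0680). That of PLK3, a stress kinase gene, was lost without resistant library 2 (edgeR adjusted p = 0.0535), sensitive library 1 (0.0607) or sensitive library 2 (0.0643). GADD45B, a stress sensor gene, had 2.91, 3.52 and 2.86 CPM in resistant libraries, against 13.1, 14.0 and 9.96 CPM in sensitive libraries (log2 fold change −1.99 ± 0.23, edgeR adjusted p = 2.20e-04). GADD45A fell to 30.1 ± 1.86 CPM in resistant cells, against 61.9 ± 18.6 CPM in sensitive cells (SD, n = 3 each; edgeR adjusted p = 0.00800). The apoptosis gene PMAIP1 fell to 19.0 ± 6.44 CPM in resistant cells, against 45.2 ± 5.48 CPM in sensitive cells (edgeR adjusted p = 0.00435), and the stress gene SESN2 to 51.9 ± 17.99 CPM in resistant cells, against 118 ± 9.73 CPM in sensitive cells (edgeR adjusted p = 0.00505). The death receptor gene FAS, also counted among the 8 falls, was scarce. It had 0.0447 ± 0.0404 CPM in resistant cells and 0.781 ± 0.374 CPM in sensitive cells (edgeR adjusted p = 0.00633). The resistant mean of FAS was under the floor of 3 counts. FAS passed the filter on low counts only through the sensitive libraries, so the size of its fall is uncertain. CDKN1A, a cell cycle inhibitor, had 24.1, 25.8 and 26.8 CPM in resistant libraries, against 50.3, 61.3 and 19.1 CPM in sensitive libraries. Sensitive library 3 was below every resistant library, and CDKN1A did not pass (edgeR adjusted p = 0.136), but did without sensitive library 3 (0.00211) and with no filter on low counts (0.00120). The gene that rose, named after its value was seen, was MDM2, a ubiquitin ligase gene, at 148 ± 13.6 CPM in resistant cells and 96.9 ± 7.40 CPM in sensitive cells (SD, n = 3 each; edgeR adjusted p = 0.0160, and 0.0842, 0.0700 and 0.109 without resistant library 2, sensitive library 1 or sensitive library 2, and 0.0556 with length and GC offsets).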

How the data were processed

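Per the labels' protocols, total RNA was depleted of ribosomal RNA and sequenced from stranded libraries. Reads were handled with Trimmomatic 0.39, HISAT2 2.2.1 and featureCounts of Subread 2.0.3 on GRCh38, per the submitters' processing notes. Not given in the sources used here are the annotation release, the strand setting and the unit counted (read or fragment). Overlapping genes and genes with near-identical copies are therefore uncertain. Some overlapping genes are not reported here. The authors deposited raw counts per Ensembl gene ID, whole numbers whose totals differ between libraries. Of 61487 IDs, 61369 had a name in a reference table and 58312 a position in GENCODE 29, which is the source of printed gene positions and exon bases.

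The members and all other gene lists were chosen with earlier results of these data known. The test was that of edgeR 4.0.16, run in R 4.3.3 (filterByExpr, TMM factors, robust quasi-likelihood test, two-sided), and p-values were Benjamini-Hochberg adjusted over the 20891 genes tested. A gene at an adjusted p below 0.05 was called, and every adjusted p is from this fit unless another tool or setting is named. Each SE is approximate, from the log2 fold change over the root of the F statistic. Log2 CPM of single libraries used a prior count of 2. The floor of 3 counts covers counting error only. All members could be named. Among other pathway genes the up to 3 called genes with the smallest adjusted p per pathway were named, in context lists up to 4, and MKI67, CDKN1A and GADD45A always. RMI2, MDM2, RRM2B, PLK3 and the neighbouring genes fall outside this rule and were named after their values were seen.

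Labels number the replicates 1 to 3 in each group. Over genes with a mean log2 CPM above 3, deviations from the group means correlated between same-numbered libraries at 0.323, 0.130 and 0.394, so a fit with the replicate number as a block is given where it changes a call. Resistant library 1 correlated more with sensitive library 2 (0.414). The labels do not say what a number shares.

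Other settings tried were library totals alone, upper quartile factors, the size factors of DESeq2 1.42.0, other filters on low counts, removal of the most abundant features, the replicate block, leaving out each library or both numbered 3, offsets for length and GC content, DESeq2, limma-voom (limma 3.58.1), an adjusted p below 0.01, glmTreat against 1.5-fold, a log2 fold change of at least 1, and means in place of medians. Only the main edgeR fit was run on simulated counts, in 3 simulations with 200 genes changed. The simulated spread was the same for all genes and held no effect of replicate number, unlike these libraries. The other settings and the medians were not run on simulated counts.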

Additional observations from a re-analysis of the deposited data

How the results depend on the processing

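Members called, 4 higher and 2 lower, came to 7 and 2 with upper quartile factors or at least 50 counts in 3 libraries, 9 and 2 with library totals alone, 3 and 2 with no filter or without the most abundant features, 6 and 3 with length and GC offsets, 7 and 3 with the replicate block, and 11 and 10 without both libraries numbered 3. They were 5 and 2 with DESeq2, 4 and 2 with limma-voom, 1 and 1 at an adjusted p below 0.01, 0 and 1 with glmTreat and 0 and 0 at a log2 fold change of at least 1. Leaving out 1 library gave between 0 and 3 higher and between 1 and 4 lower. The block added calls for FANCD2, PRKDC, RAD51C and POLB and changed no other member's call. Upper quartile factors added FANCD2, PRKDC and WRN as higher, as did the filter of at least 50 counts in 3 libraries. Length and GC offsets added RAD51C and WRN as higher and LIG3 as lower. Library totals moved the median of all genes to 0.20 and the share of higher calls to 58.9%, against 42.8% with TMM. Of 867 single-member fold changes under alternatives, 808 kept their status, 23 lost a call, 36 gained one and 0 reversed. Kept status covers members not called in either fit, and 45 of the 51 tested members were not called in the main fit. All 23 losses therefore fell on the 6 members called there, so the 808 do not measure how stable the calls were. With library totals alone, pathway medians moved to 0.078 for base excision, 0.10 for nucleotide excision, 0.34 for recombination and for the Fanconi anaemia genes and 0.28 for checkpoint genes. Without both libraries numbered 3 they were −0.032 for base excision, 0.29 for recombination and 0.27 for checkpoint genes, and with upper quartile factors −0.013 for base excision and 0.25 for recombination. The base excision median was −0.055 with at least 50 counts or with length and GC offsets, and its mean −0.029, and the mean for nucleotide excision was −0.21. Leaving out 1 library moved the median from −0.17 to −0.030 for base excision, 0.14 to 0.26 for recombination, 0.14 to 0.27 for the Fanconi anaemia genes, −0.33 to 0.032 for end joining, −0.27 to 0.0085 for mismatch repair, −0.41 to −0.058 for crosslinked protein removal, −0.14 to 0.035 for nucleotide excision and 0.022 to 0.24 for checkpoint genes. Over all genes, 2054 higher and 2741 lower became between 1051 and 3327 higher and between 1677 and 3718 lower on leaving out 1 library, 4645 and 5021 without both numbered 3, 938 and 1586 at an adjusted p below 0.01, 840 and 1429 with glmTreat, and 1277 higher at a log2 fold change of at least 1. Where a cause is not given by the alternative's own construction, the cause was not tested.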
